A study of Homo sapiens with 4 samples.

Results

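The 10 genes described here (CA9, CA12, NDRG1, VEGFA, ADM, BNIP3, BNIP3L, EGLN3, P4HA1 and ANKRD37) are induced by low oxygen in many cell types and act outside glycolysis. They were found by symbol among the 48162 genes of the table, each on 1 row. Transcripts were measured in MDA-MB-231, an established cell line of triple-negative breast cancer origin kept in serum-containing DMEM with antibiotics, by sequencing of poly(A) RNA. Of 4 libraries, 2 came from cells given vehicle and 2 from cells given MGH-CP1, which the series title calls a TEAD palmitoylation inhibitor, at 10 µM, and all were collected after 24 h. The labels name no low-oxygen culture, no other treatment and no separate origin of the replicates, so the spread behind each p-value may be technical, and a single line limits the comparison.

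When oxygen is ample, EGLN prolyl hydroxylases modify the alpha subunits of the hypoxia-inducible factors (HIF), and the VHL ubiquitin ligase then marks those subunits for degradation. When oxygen is scarce the alpha subunit persists, pairs with ARNT and binds DNA at a short core written ACGTG or GCGTG. The genes it raises regulate pH, blood vessel growth, mitochondrial clearance, collagen folding and HIF itself, and CA9 and VEGFA are widely used markers of hypoxic tumour tissue.

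Levels are in FPKM, fragments per kilobase of gene and scaled to the size of the library. Read totals recovered from these values ran from 16790645 to 18485701. Reads on the 10 genes ranged from 36 for ANKRD37 to 34078 for NDRG1 in a single library. Of 5 genes known to be high in the line, each stood at 36.3 FPKM or more in every library; VIM and CD44 were called higher with MGH-CP1 and AXL, CAV1 and EGFR lower. The hormone receptor genes ESR1 and PGR were at or near 0. On the same list of luminal markers CDH1 was at 0.895 FPKM or less in each library, while EPCAM stood at 7.91 to 9.95 FPKM. Of 5 immune markers 4 averaged under 1 FPKM, as did 4 of 6 fibroblast markers and each of 3 matched endothelial markers, with summed levels of 3.58 to 3.96, 3.17 to 4.53 and 0.0327 to 0.153 FPKM. The epithelial keratin KRT19 was high at 395 and 371 FPKM in vehicle and 715 and 679 FPKM with MGH-CP1; its part in the results below was not tested.

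With MGH-CP1, 9 of the 10 genes were higher and none was lower (limma on log2(FPKM + 1), adjusted p under 0.05). All 10 estimates were positive, so 0 were lower at an unadjusted p under 0.05 too, and 0 were lower by voom. Over all 11790 genes tested 20.0% were called higher and 25.1% lower. The median log2 fold change was 0.47 over the 10 genes and -0.02 over all tested genes. Both MGH-CP1 values lay above both vehicle values for those 9 genes, against 34.7% of all tested genes. CA12, NDRG1 and VEGFA rose most, by 1.78 to 2.29-fold, EGLN3 and ADM rose less, and the rises of P4HA1, BNIP3L and BNIP3 were under 1.2-fold. CA9 did not pass. Leaving out either MGH-CP1 library, so that a single one stood for the group, lowered the number called among these genes and among all tested genes. CA12, NDRG1, VEGFA, EGLN3 and ADM passed under each of 12 alternative settings. Since whole cultures were measured, more expressing cells and more RNA per cell cannot be told apart.

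**Figure D1:**
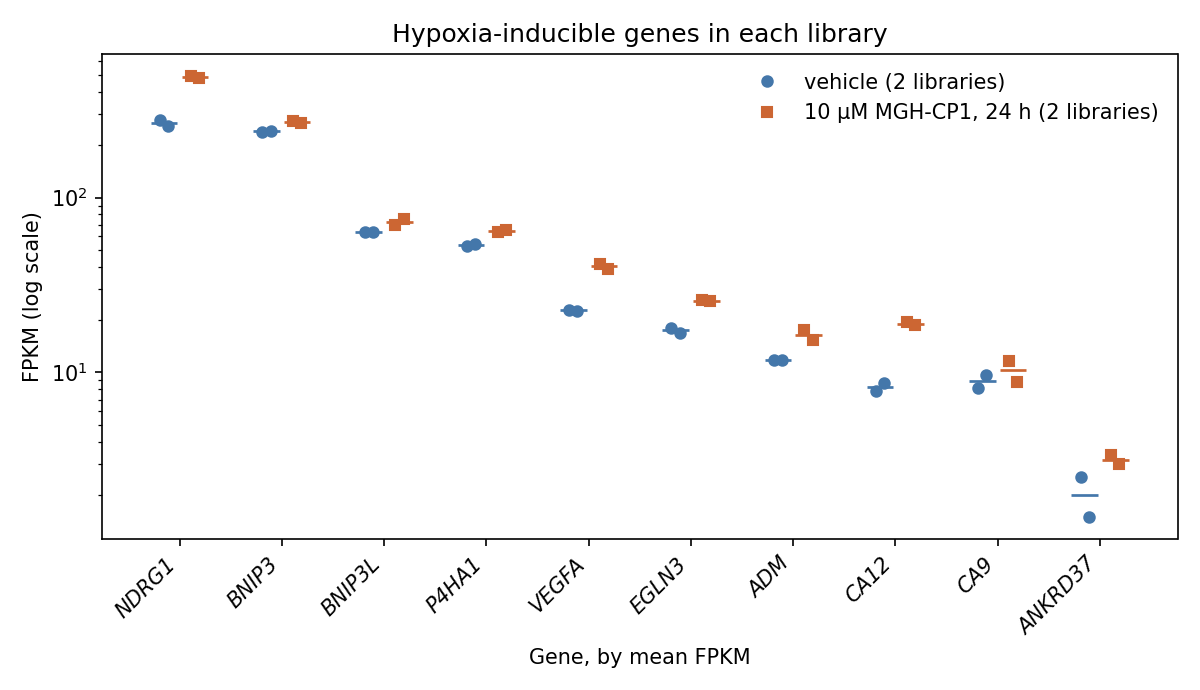
FPKM of each gene in each library on a log axis, with vehicle as circles, MGH-CP1 as squares and group means as bars. The groups are apart for 9 genes and overlap for CA9, and levels span from 1.48 FPKM (ANKRD37) to 495 FPKM (NDRG1).

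Per kilobase, the order of mean levels in vehicle was NDRG1, BNIP3, BNIP3L, P4HA1, VEGFA, EGLN3, ADM, CA9, CA12 and ANKRD37. CA9 and CA12 were the neighbours whose vehicle values overlapped. With MGH-CP1, CA12 moved above ADM and CA9, and its values of 19.3 and 18.7 FPKM exceeded both ADM values. The 10 genes together took 2288 and 2214 of every 1000000 reads in vehicle and 3607 and 3519 with MGH-CP1. NDRG1 supplied 48.1% and 46.0% of these reads in vehicle and 54.6% and 54.3% with MGH-CP1. Without NDRG1 the sums were 1187 and 1196 per 1000000 reads in vehicle and 1637 and 1608 with MGH-CP1, so the groups were apart without the most abundant gene too.

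Promoter sequence was examined because these genes share a regulator. RefSeq windows on GRCh38.p14, another build than the table's hg19, were matched by symbol for 7 of the 10 genes; NDRG1, VEGFA and BNIP3L had no entry. The HIF core, ACGTG or GCGTG on either strand, occurred in the 250 bases before the start in 6 of the 7, against 43.2% of 35116 promoters of the same length. These 7 windows had a median GC content of 68.0%, against 58.0% over all promoters, and both motifs contain CG. The genes were also listed because low oxygen induces them, so a high share with the HIF core may follow from that choice. Printed 5′ to 3′ on the gene's strand with core matches in capitals, are the windows richest in matches (BNIP3 and ANKRD37) and those of the paired carbonic anhydrase genes CA12 and CA9. A palindromic CACGTG counts as 2 overlapping matches.
BNIP3 (chr10:131981924-131982173, minus strand): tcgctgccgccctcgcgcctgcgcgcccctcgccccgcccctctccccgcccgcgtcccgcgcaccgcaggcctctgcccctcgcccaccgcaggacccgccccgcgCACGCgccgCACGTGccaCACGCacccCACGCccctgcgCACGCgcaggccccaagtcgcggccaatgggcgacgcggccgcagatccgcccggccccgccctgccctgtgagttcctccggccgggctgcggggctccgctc
ANKRD37 (chr4:185396591-185396840, plus strand): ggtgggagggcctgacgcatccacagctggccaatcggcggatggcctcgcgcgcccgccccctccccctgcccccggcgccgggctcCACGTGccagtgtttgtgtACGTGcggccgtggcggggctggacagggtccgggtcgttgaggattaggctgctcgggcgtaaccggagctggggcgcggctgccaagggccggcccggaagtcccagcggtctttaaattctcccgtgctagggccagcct
CA12 (chr15:63381847-63382096, minus strand): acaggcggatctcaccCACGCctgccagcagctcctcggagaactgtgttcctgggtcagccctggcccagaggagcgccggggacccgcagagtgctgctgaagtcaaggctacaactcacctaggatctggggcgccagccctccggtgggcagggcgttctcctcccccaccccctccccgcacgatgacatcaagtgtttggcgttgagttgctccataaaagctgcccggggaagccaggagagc
CA9 (chr9:35673678-35673927, plus strand): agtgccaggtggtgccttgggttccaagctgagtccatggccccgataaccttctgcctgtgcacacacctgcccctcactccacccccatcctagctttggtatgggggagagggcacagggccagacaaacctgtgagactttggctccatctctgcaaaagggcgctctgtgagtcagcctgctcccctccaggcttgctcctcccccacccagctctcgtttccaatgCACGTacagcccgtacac
BNIP3 had 6 matches and ANKRD37 had 3, whereas CA12, CA9, ADM and P4HA1 had 1 each and EGLN3 had 0. Among these 7 genes BNIP3 had the most matches and the smallest log2 fold change, and EGLN3 had 0 matches and rose 1.48-fold. Whether the number of matches goes with the size of the rise was not tested. The single match of CA9 lay 14 to 18 bases before the start and that of CA12 lay 230 to 234 bases before it. HIF sites can also lie far from the start, outside these windows.

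The 2 carbonic anhydrases, membrane enzymes that hydrate carbon dioxide at the outer cell face and so help set pH around tumour cells, differed in their values. CA12 (ENSG00000074410, hg19 chromosome 15, 63613577 to 63674360, minus strand) had 7.84 and 8.73 FPKM in vehicle and 19.3 and 18.7 FPKM with MGH-CP1. Even the closest pair of libraries, 1 from each group, was 2.14-fold apart. Its log2 fold change was 1.11 ± 0.08 (SE; limma, adjusted p = 6.34e-05), and 0.679% of tested genes had a larger one. CA9 (ENSG00000107159, chromosome 9, 35673853 to 35681156, plus strand) had 8.16 and 9.68 FPKM in vehicle and 11.7 and 8.86 FPKM with MGH-CP1. The groups overlapped, with MGH-CP1 replicate 2 inside the vehicle range. The log2 difference of 0.18 did not pass (limma, adjusted p = 0.312), and its 95% interval of -0.13 to 0.49 lay below that of CA12, 0.93 to 1.29. Each CA9 value rested on 243 to 327 reads, and the gene overlaps ARHGEF39 on the opposite strand, which averaged 0.836 FPKM. The ratio of CA12 to CA9 was 0.962 and 0.902 in vehicle and 1.66 and 2.11 with MGH-CP1, so the groups did not overlap; with 2 libraries a group an exact permutation test cannot go below 0.333, and none is given for ratios.

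Of 13 other carbonic anhydrases 3 were expressed enough to be tested, and CA11, a relative without known enzyme activity, was called higher, from 0.631 ± 0.0211 to 1.54 ± 0.00113 FPKM (SD, n = 2); it reached the filter of 1 FPKM only through its treated values. Of 4 tested transporters of acid and base equivalents 1 was higher and 1 lower. The lactate exporter gene SLC16A3 rose from 197 ± 7.88 to 247 ± 10.5 FPKM, a call lost without MGH-CP1 replicate 1 (limma, adjusted p = 0.0662, the highest over its alternatives). The bicarbonate cotransporter gene SLC4A7 fell from 8.48 ± 1.26 to 5.75 ± 0.0796 FPKM, a call that ended when low genes were also tested (adjusted p = 0.066 by limma, its highest), and SLC16A3 overlaps CSNK1D on the opposite strand. Without vehicle replicate 1, 2 of these 4 transporters were called higher.

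Both secreted vascular factors rose. VEGFA (ENSG00000112715, chromosome 6, 43737921 to 43754224, plus strand), the main growth factor for new vessels, had 22.9 and 22.5 FPKM in vehicle and 41.7 and 39.1 FPKM with MGH-CP1. The vehicle values were nearly equal and lay well below both treated values. On the log2 scale VEGFA rose by 0.80 ± 0.06 (limma, adjusted p = 9.3e-05). ADM (ENSG00000148926, chromosome 11, 10326227 to 10328944, plus strand), which encodes the vasodilator peptide adrenomedullin, had 11.8 FPKM in both vehicle libraries and 17.4 and 15.4 FPKM with MGH-CP1. The treated libraries were apart from each other by more than the vehicle pair, yet both lay above it. On the log2 scale ADM rose by 0.44 ± 0.08 (limma, adjusted p = 0.00353, at most 0.0348 over the alternatives).

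Genes for the receiving side of these signals varied in level. Among 9 other VEGF ligands and receptors 5 were tested, 3 rose and none fell (0 lower at an unadjusted p under 0.05 with limma and 0 by voom). Over all tested genes 20.0% rose and 25.1% fell. The coreceptor gene NRP1 rose from 103 ± 2.7 to 139.7 ± 8.04 FPKM, NRP2 from 9.11 ± 0.121 to 11.4 ± 0.678 FPKM, and the ligand gene VEGFB from 51.5 ± 4.35 to 65.0 ± 1.86 FPKM. The NRP1 call was kept in all 12 alternatives, whereas that of NRP2 was lost without MGH-CP1 replicate 2 and that of VEGFB without MGH-CP1 replicate 1 (limma; highest adjusted p = 0.143 and 0.0591), and with no filter only NRP1 was called. The kinase receptor genes FLT1, KDR and FLT4, named after their values were seen, were listed at 0.868 FPKM or less in each library. The ratio of VEGFA to VEGFB was 0.419 and 0.465 in vehicle and 0.629 and 0.613 with MGH-CP1, without overlap. In the adrenomedullin system, the receptor gene CALCRL was at 0.0518 FPKM or less. Of its 2 tested genes RAMP1, an accessory protein of CALCRL, fell from 22.4 ± 2.18 to 17.2 ± 0.579 FPKM, and ACKR3, an atypical receptor proposed to scavenge adrenomedullin, rose from 0.819 ± 0.126 to 1.99 ± 0.515 FPKM. Both calls were lost without MGH-CP1 replicate 2, which left neither gene called (limma; highest adjusted p = 0.0633 for RAMP1 and 0.0738 for ACKR3 over their alternatives). ACKR3, too, reached the filter only through its treated values, and with no filter neither ACKR3 nor RAMP1 was called.

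NDRG1, a cytoplasmic protein of the NDRG family that is induced by hypoxia, iron loss and differentiation, was the most abundant of the 10. NDRG1 (ENSG00000104419, chromosome 8, 134249414 to 134314265, minus strand) had 277 and 256 FPKM in vehicle and 495 and 479.8 FPKM with MGH-CP1. Both treated libraries were high, and the lowest of them was 1.74 times the highest vehicle value. On the log2 scale the rise of NDRG1 was 0.87 ± 0.07 (limma, adjusted p = 9.51e-05). Of its 3 relatives only NDRG3 was tested, and it rose from 27.8 ± 0.0749 to 38.5 ± 0.173 FPKM. The ratio of NDRG1 to NDRG3 was 9.95 and 9.16 in vehicle and 12.9 and 12.4 with MGH-CP1, so NDRG1 was higher relative to NDRG3 in both treated libraries.

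EGLN3 was the member of the list closest to HIF signalling itself. EGLN3 (ENSG00000129521, chromosome 14, 34393437 to 34931980, minus strand), a HIF prolyl hydroxylase whose own transcript is HIF-induced, had 18.0 and 16.8 FPKM in vehicle and 25.9 and 25.6 FPKM with MGH-CP1. The treated pair was tight and lay above both vehicle values. EGLN3 thus rose by 0.54 ± 0.06 on the log2 scale (limma, adjusted p = 0.000582). The table's span for EGLN3 covers SPTSSA on the same strand, which had 19.3 ± 0.796 FPKM in vehicle and 16.8 ± 0.987 FPKM with MGH-CP1. The sister gene EGLN1, the hydroxylase that limits HIF in most cells, was level at 24.2 ± 0.585 and 24.3 ± 1.61 FPKM, with a 95% interval of -0.16 to 0.16 for the log2 difference (limma, adjusted p = 0.998). The ratio of EGLN3 to EGLN1 was 0.755 and 0.684 in vehicle and 1.12 and 1.01 with MGH-CP1. EGLN2, the third hydroxylase, was low and rose from 1.49 ± 0.362 to 2.64 ± 0.577 FPKM, a call kept in 7 of 11 alternatives (limma, highest adjusted p = 0.169).

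ANKRD37 (ENSG00000186352, chromosome 4, 186317175 to 186321782, plus strand), a small ankyrin repeat protein gene and HIF target, was the least certain of the 9 that passed. It had 2.51 and 1.48 FPKM in vehicle, from 67 and 36 reads, and 3.36 and 2.98 FPKM with MGH-CP1, from 84 and 73 reads. The vehicle libraries differed by more than the gap between the groups. Its log2 fold change was 0.50 ± 0.17 (limma, adjusted p = 0.0487), and the call was kept in 5 of 11 alternatives, with a log2 fold change of 0.25 without vehicle replicate 2 and 0.75 without vehicle replicate 1. Leaving out vehicle replicate 2, MGH-CP1 replicate 1 or MGH-CP1 replicate 2 each ended the call (limma, adjusted p = 0.158, 0.173 and 0.0851; 0.22 with no filter was the highest). ANKRD37 overlaps UFSP2 on the opposite strand by 1089 bases, and UFSP2 was itself at 8.05 ± 0.443 FPKM in vehicle and 10.3 ± 0.758 FPKM with MGH-CP1; whether strand was used in counting is not stated in the labels, so their reads cannot be told apart.

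**Figure D2:**
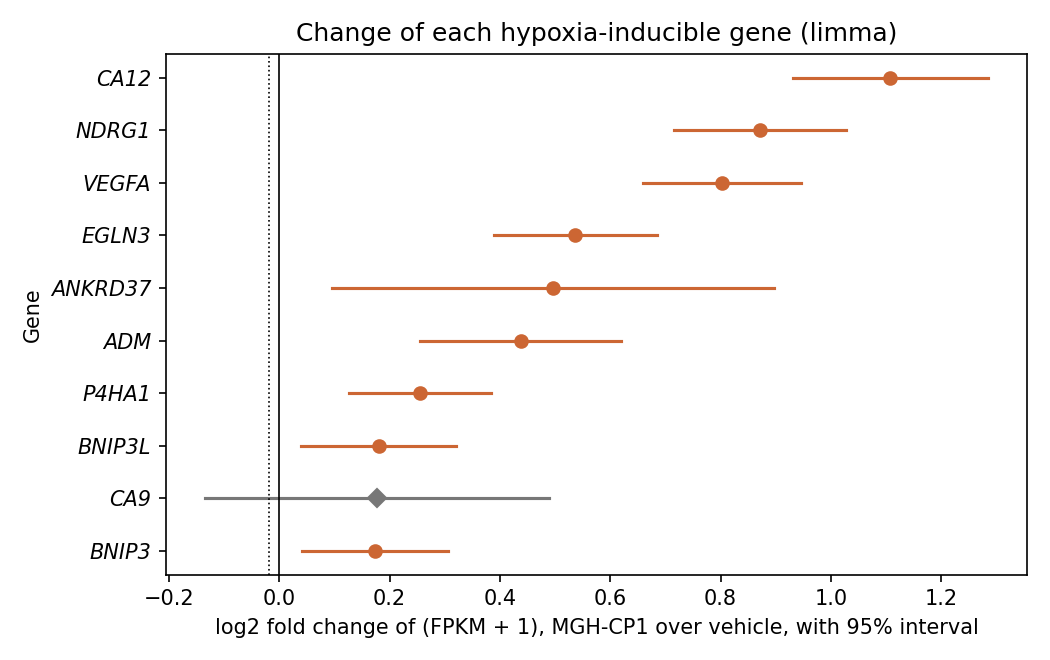
Log2 fold change of (FPKM + 1), MGH-CP1 over vehicle, with its 95% limma interval for each gene; circles passed, the diamond (CA9) did not, and the dotted line is the median of all tested genes. Intervals of CA12, NDRG1 and VEGFA lie to the right of those of P4HA1, BNIP3L, CA9 and BNIP3.

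The mitophagy receptors BNIP3 and BNIP3L, outer mitochondrial membrane proteins that bind LC3-family proteins and mark mitochondria for removal, were abundant and moved little. BNIP3 (ENSG00000176171, chromosome 10, 133781578 to 133795435, minus strand) had 238 and 241 FPKM in vehicle and 273 and 268 FPKM with MGH-CP1. BNIP3L (ENSG00000104765, chromosome 8, 26240414 to 26363152, plus strand) had 63.6 and 63.9 FPKM in vehicle and 69.6 and 75.2 FPKM with MGH-CP1. In both genes the treated pair lay just above the vehicle pair. The log2 fold changes were 0.17 ± 0.06 for BNIP3 and 0.18 ± 0.06 for BNIP3L (limma, adjusted p = 0.0413 and 0.0435), and leaving out either MGH-CP1 library ended both calls. The adjusted p (limma) for BNIP3 was 0.263 without MGH-CP1 replicate 1, its highest over the alternatives, and 0.192 without MGH-CP1 replicate 2. For BNIP3L it was 0.0856 without MGH-CP1 replicate 1 and 0.329 without MGH-CP1 replicate 2, its highest. The ratio of BNIP3L to BNIP3 was 0.267 and 0.265 in vehicle and 0.255 and 0.281 with MGH-CP1, so the groups overlapped. The pseudogene BNIP3P1, which could share reads with BNIP3, averaged 0.847 FPKM, and PNMA2, on the opposite strand, overlaps BNIP3L and averaged 9.70 FPKM.

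Other mitophagy genes also moved: of 11 tested 6 rose and 1 fell, and the list's median change was 0.25 on the log2 scale. The shares were 54.5% and 9.1%, against 20.0% and 25.1% of all tested genes. The LC3-family gene GABARAPL1 rose from 5.95 ± 0.0298 to 10.2 ± 0.245 FPKM, the receptor gene OPTN from 84.1 ± 0.605 to 134 ± 2.26 FPKM, and FKBP8, another mitophagy receptor gene, from 203 ± 11.2 to 264 ± 11.8 FPKM. These 3 log2 fold changes, 0.69, 0.67 and 0.38, were each larger than those of BNIP3 and BNIP3L. OPTN overlaps CCDC3 on the opposite strand. PHB2, named after its values were seen as the gene that fell, had a log2 fold change of -0.37, and 2 genes were called lower without MGH-CP1 replicate 1.

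P4HA1 (ENSG00000122884, chromosome 10, 74766975 to 74856732, minus strand), the catalytic subunit of the enzyme that hydroxylates prolines in collagen, had 53.0 and 54.2 FPKM in vehicle and 63.2 and 65.1 FPKM with MGH-CP1. Both pairs were tight and did not overlap. The log2 fold change was 0.25 ± 0.05 (limma, adjusted p = 0.00786), and the adjusted p (limma) was 0.0518 without MGH-CP1 replicate 1 and 0.0877, its highest, without MGH-CP1 replicate 2. Its paralog P4HA2 rose further, from 29.0 ± 0.185 to 43.7 ± 0.407 FPKM (log2 fold change 0.57 ± 0.05). The ratio of P4HA1 to P4HA2 was 1.82 and 1.88 in vehicle and 1.46 and 1.48 with MGH-CP1, so the share of P4HA1 was lower in both treated libraries. P4HA2 overlaps PDLIM4 and SLC22A4 on the opposite strand, which leaves its value uncertain.

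Among 8 tested genes besides P4HA1 on a list of collagen hydroxylases and related genes, 2 rose and 1 fell. The 2 that rose were P4HA2 and P4HTM, and P4HTM is not a collagen hydroxylase. P3H2, a prolyl 3-hydroxylase gene, fell from 24.0 ± 0.421 to 14.8 ± 0.00536 FPKM, and P4HTM, a membrane-bound prolyl hydroxylase gene, barely passed, from 3.57 ± 0.136 to 4.48 ± 0.0239 FPKM (limma, adjusted p = 0.0493; 0.193 at the highest). Its call was kept in 5 of 11 alternatives and ended with any 1 library left out, and P4HTM overlaps WDR6 on the same strand. The number higher was 4 with median centring, with quantile normalization and without vehicle replicate 1, and 1 without vehicle replicate 2 or without either MGH-CP1 library. Without vehicle replicate 1 the number lower was 2.

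Genes of the HIF system moved in both directions. Of 18 listed subunits and regulators 16 were tested, 6 rose and 2 fell, and the median change was 0.10 on the log2 scale. The shares were 37.5% and 12.5%, against 20.0% and 25.1% of all tested genes. HIF1A, the oxygen-regulated subunit, had 88.6 and 96.5 FPKM in vehicle and 163 and 169 FPKM with MGH-CP1. The log2 fold change of HIF1A was 0.84 ± 0.06 (limma, adjusted p = 9.17e-05), near those of NDRG1 and VEGFA. EPAS1, which encodes HIF-2 alpha, rose from 33.1 ± 0.773 to 52.4 ± 1.91 FPKM and ARNT, the shared partner, from 8.90 ± 0.146 to 13.3 ± 0.311 FPKM. All 3 passed in each of the 12 alternatives, and an annotated antisense gene overlaps HIF1A. HIF alpha subunits are controlled mainly as proteins, which were not measured here.

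On the side that restrains HIF, VHL rose from 31.2 ± 1.15 to 38.0 ± 2.58 FPKM (limma, adjusted p = 0.0148; 0.139, the highest, without MGH-CP1 replicate 2). HIF1AN, the asparagine hydroxylase that blocks HIF activity, did not pass at 23.9 ± 0.0234 and 26.1 ± 0.608 FPKM (limma, adjusted p = 0.125, 95% interval of the log2 difference -0.01 to 0.26). Of listed genes named after their values were seen, CITED2 rose from 61.3 ± 2.65 to 75.5 ± 5.34 FPKM. Over the whole HIF list, not sorted here into genes that restrain or promote HIF, 2 genes fell. They were SIAH2, from 8.32 ± 0.789 to 6.17 ± 0.341 FPKM, and CUL2, from 15.2 ± 1.73 to 12.5 ± 0.0128 FPKM. The CUL2 call was kept in 5 of 12 alternatives, and those of CITED2 and SIAH2 in 10 of 12 each. With no filter the HIF list had 3 genes higher and 0 lower. The ligase subunit RBX1, which most cells need, was listed at 0.286 FPKM or less in each library, so a low listed value need not mean absence; it was named after its values were seen. Without MGH-CP1 replicate 2 the list had 3 genes higher and 0 lower, and without MGH-CP1 replicate 1 it had 1 lower.

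Further hypoxia-inducible genes were compared from a list of 34, of which 33 were tested. In this list 17 rose and 3 fell, or 51.5% and 9.1%, against 20.0% and 25.1% of all tested genes. The median change of the list was 0.28 on the log2 scale. The lipid droplet protein gene PLIN2 rose from 91.6 ± 5.87 to 201 ± 8.56 FPKM and MXI1, which encodes an antagonist of MYC, from 13.4 ± 0.497 to 24.1 ± 1.01 FPKM. The chemokine receptor gene CXCR4 fell from 4.42 ± 0.165 to 1.66 ± 0.110 FPKM (log2 fold change -1.03 ± 0.10), against the direction of the 9 genes above. The transferrin receptor gene TFRC, named after its values were seen, also fell, with a log2 fold change of -0.48. The number higher was 11 without MGH-CP1 replicate 1, and the number lower was 5 without vehicle replicate 1.

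Among 20 glucose transport and glycolysis genes 10 rose and none fell, where 20.0% of all tested genes rose and 25.1% fell. The median change of the list was 0.20 on the log2 scale. At an unadjusted p under 0.05 with limma 1 was lower, as 1 was by voom. The gene lower with limma was the glucose transporter gene SLC2A1, named after its values were seen. It went from 240 ± 1.39 to 214 ± 6.25 FPKM and did not pass (limma, adjusted p = 0.0532). SLC2A3, a glucose transporter gene, rose from 7.23 ± 0.126 to 16.4 ± 0.0998 FPKM, about as far as CA12, ENO2 from 51.6 ± 3.66 to 71.9 ± 4.06 FPKM, and ALDOC from 3.06 ± 0.0754 to 4.80 ± 0.725 FPKM. ALDOC did not pass with no filter or when MGH-CP1 replicate 1 was left out (adjusted p = 0.0747 by limma, its highest). Without MGH-CP1 replicate 1 only 3 were called higher, without MGH-CP1 replicate 2 only 5, and with quantile normalization 6 were higher and 2 lower; 1 was called lower without vehicle replicate 1. With no filter 4 of the 20 were higher, and 1 was lower both with a filter of 5 FPKM and with the replicate block. These lists were described by counts and medians, and no test compared them with the 10 genes.

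**Figure D3:**
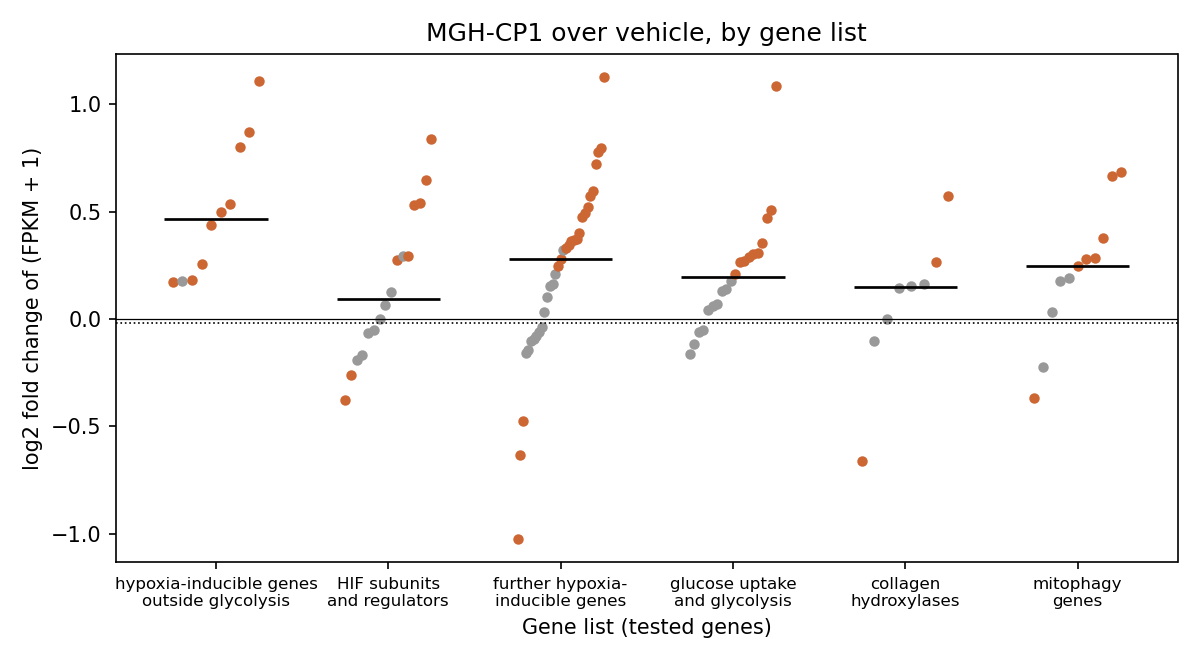
Log2 fold change of (FPKM + 1), MGH-CP1 over vehicle, for each tested gene of 6 lists, sorted within a list; coloured points passed, grey points did not, bars are list medians and the dotted line is the median of all tested genes. The leftmost list has a median of 0.47 and no point below 0, while the list of further hypoxia-inducible genes reaches down to -1.03.

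The 3 protein-coding genes outside the list whose centred log2 values over the 4 libraries lay closest to the mean profile of the 10 were PARP10, XDH and NEU1, among 10770 candidates. Their Euclidean distances were 0.023, 0.025 and 0.026 on the log2 scale, against a median of 0.55. PARP10 went from 12.0 ± 0.182 to 17.7 ± 0.853 FPKM, XDH from 0.801 ± 0.0372 to 1.55 ± 0.0511 FPKM and NEU1 from 15.5 ± 0.0171 to 22.6 ± 0.930 FPKM. The 4 libraries form 2 groups, so genes with a like group difference are close by construction. XDH reached the filter only through its treated values, and PARP10 overlaps GRINA on the opposite strand.

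**Figure D4:**
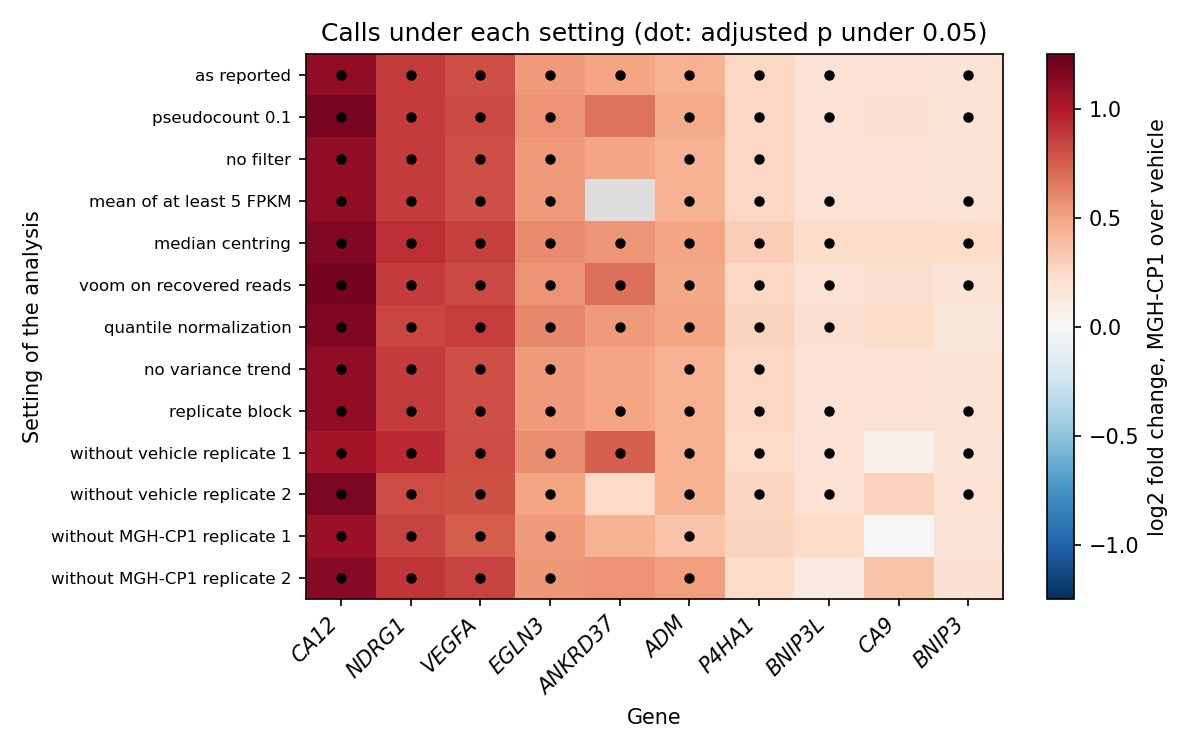
Log2 fold change of each gene (colour) as reported and under 12 alternatives, with a dot where the adjusted p was under 0.05 and grey where a gene was below the filter. CA12, NDRG1, VEGFA, EGLN3 and ADM have a dot in every row, and CA9 has none.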

How the data were processed

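The authors deposited 1 table of FPKM values per gene, with hg19 coordinates and gene lengths; per the submitters' processing notes, CASAVA 1.8 made the base calls and STAR aligned the reads (build hg19). Which counter and annotation release were used, and whether strand was used, is not given in the sources used here. FPKM is relative to each library's total, so a rise is a rise in share. FPKM times gene length gave whole multiples of 1 step for 100% of values above 0 (tolerance 0.001), and these were taken as reads.

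Genes averaging 1 FPKM or more over the libraries were tested with limma 3.58.1 in R 4.3.3 on log2(FPKM + 1), with group as the only term and a variance trend, and p-values were adjusted by Benjamini-Hochberg over all 11790 tested genes. All 10 genes described passed the filter. Fold changes on this scale understate those of low genes. Of 166 list entries 165 matched the table, and the values of 1 listed gene are not reported here. The genes and lists were chosen with earlier results of these data known. Named outside the 10 were, per list, up to 3 called genes with the largest change, and HIF1A, EPAS1, ARNT, VHL, EGLN1, EGLN2 and HIF1AN. The fit was tested on simulated data. Alternatives were another pseudocount, other filters, median centring, quantile normalization, voom on recovered reads, no variance trend, a replicate block and leaving out each library. Python 3.11.15, pandas 2.3.3, numpy 2.4.6 and matplotlib 3.10.9 were used.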

Additional observations from a re-analysis of the deposited data

How the results depend on the processing

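The 10 genes had 9 called higher with median centring, voom and the replicate block, 8 with a pseudocount of 0.1, quantile normalization or a filter of 5 FPKM (where ANKRD37 is not tested), and 6 with no filter or no variance trend. Leaving out 1 library gave 5 to 9. None was called lower in any of these. With median centring 2845 of all tested genes were higher and 2463 lower, and with quantile normalization 2803 and 2590. Higher calls outnumbered lower ones in both settings, unlike in the reported fit (2355 and 2956). Over all genes the number higher was 1568 with no filter, and 1460 to 2556 when 1 library was left out, against 2355. With 1 library left out, the log2 difference of CA9 ran from -0.0051 (without MGH-CP1 replicate 1) to 0.36 (without MGH-CP1 replicate 2), and that of EGLN1 from -0.065 (without MGH-CP1 replicate 2) to 0.065 (without MGH-CP1 replicate 1), with -0.023 without vehicle replicate 1; neither passed in any setting, and the cause was not tested. Across the 10 genes, the other named genes and the 3 most alike, 435 of the gene values kept their direction and side of the threshold, 44 lost the call, 2 gained one and 3 changed sign. Replicate numbers are shared by the groups only as numbers: deviations of same-numbered libraries from their group means had a correlation of 0.05 across genes, and with the replicate block 2453 genes were higher and 3036 lower. Among the 10 genes, reads were fewest for ANKRD37 (36 to 84 reads a library) and CA9 (243 to 327 reads). The part of depth in their results was not tested.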
